A study of Strongylocentrotus purpuratus with 10 samples.

Results

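Antibody library 2 of a Brachyury ChIP-seq experiment on sea urchin blastulae gave a list of 7459 peaks, and 6878 of them (92.2%) overlapped neither the authors' combined peak set nor the peak list of antibody library 1 by 1 bp. These 6878 left-out peaks are described here. The combined set holds 490 intervals, of which 488 are library 2 peaks taken over unchanged, and the library 1 list holds 1484 peaks. Of the other library 2 peaks, 503 overlapped a combined interval, 15 of them without being that interval, and 78 overlapped library 1 and no combined interval. The members were thus chosen by where the authors' own calls fall, and strength is close to that choice, so the values of signal, score and fold below are a description of the members with no test.

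Whole embryos of Strongylocentrotus purpuratus, the purple sea urchin, were sampled at the blastula stage, 24 h after fertilisation. For ChIP-seq they were raised at 15°C, fixed in 1% formaldehyde for 12 min and their chromatin was sheared to about 100 to 200 bp, giving 2 antibody libraries and 2 input libraries of 50 bp single reads. For RNA-seq, 3 control libraries, labelled wild type, stood against 3 libraries of embryos that had received 2 to 4 pl of a 200 µM translation-blocking brachyury morpholino as zygotes. The labels do not say whether the control embryos were injected, whether AB1 and AB2 are different antibodies or different samples, or whether any group was pooled from several parents. The left-out peaks rest on 1 antibody library (AB2) and 1 input library (Input2), with no replicate. The peak list gives no read total, so the depth is unknown. No cell type can be checked in the peak lists, and levels per gene were not analysed here.

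Brachyury is a transcription factor of the T-box family. In the sea urchin embryo its gene is active in the vegetal plate, around the future blastopore, and in the oral field, and it is known for its part in gastrulation and gut formation. In ChIP-seq, chromatin held by an antibody is sequenced and set against input chromatin that saw no antibody, and a peak caller lists the places where the antibody signal stands above the input. Such a list runs from a few strong peaks into many weak ones, and the place where it is cut decides how many peaks are kept.

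The left-out peaks were weak, with a low antibody signal over an input much like that of the combined peaks. The authors' antibody signal had a median of 1.36 (range 1.01 to 22.78) in the 6878 left-out peaks and of 2.84 (range 1.01 to 74.09) in the 488 combined peaks. The input signal was almost the same, with a median of 0.57 against 0.54. The fold of antibody over input was therefore lower, with a median of 2.32 (interquartile range 1.97 to 2.84) against 5.66 (interquartile range 3.95 to 9.43). Every library 2 peak is 284 bp wide, so width did not differ.

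The authors' peak score equals the antibody signal minus the input signal, times a distribution score between 0 and 1, to within a median of 0.0015 and at most 0.16. Its median was 0.70 in the left-out peaks (range 0.50 to 2.41) and 2.18 in the combined peaks (range 0.53 to 41.68). The lower end of 0.50 is where the list itself stops. The interquartile range of the left-out peaks was 0.59 to 0.86, and 909 of them scored at least 1, as did 437 of the 488 combined peaks. The 78 peaks that overlapped library 1 and no combined interval were different again. Their median score of 0.69 was that of the left-out peaks, but their median antibody signal was 1.63 and their median input 0.945, so that their median fold was 1.76.

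**Figure D1:**
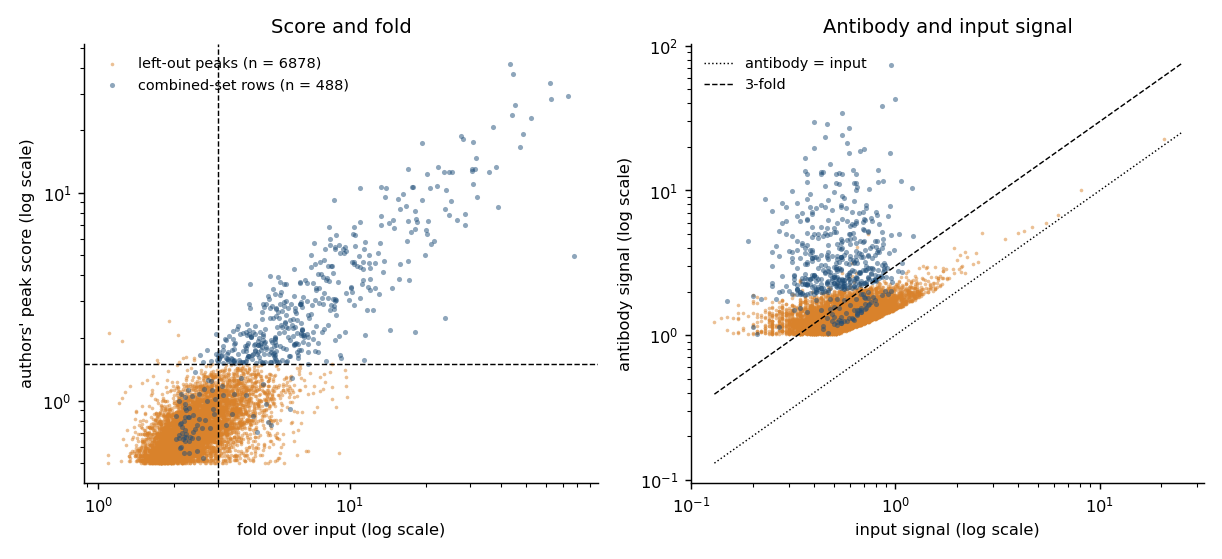
Each point is a library 2 peak, orange for the 6878 left-out peaks and blue for the 488 combined peaks, with all axes on a log scale. The left panel plots the authors' score against the fold over input with dashed lines at a score of 1.5 and a fold of 3, and no orange point lies above the first and right of the second; the right panel plots antibody signal against input signal, where a few orange points run along the line of equal signal up to an input of 20.66.

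No left-out peak combined a score above 1.5 with a fold of at least 3, whereas 307 of the 320 combined peaks without a library 1 overlap did (95.9%). Both limits were read off these values and are not stated in the sources used here. Of the 6878 left-out peaks, 1379 (20.05%) had a fold of at least 3, with scores from 0.50 to 1.5. Another 11 had a score above 1.5, with folds from 1.10 to 2.41. The remaining 5488 passed neither limit. Among the 168 combined peaks that do overlap library 1, 102 (60.7%) passed both limits, and 50 passed neither. The 13 combined peaks without library 1 that missed at least 1 limit had scores from 0.57 to 2.08 and folds from 2.22 to 5.76.

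High input marked the top of the left-out list. No left-out peak passed both limits, so a score above 1.5 could only come with a fold under 3. Given how the score is made, that requires a raised input. An input signal of at least 1 was found at 342 left-out peaks (4.97%) and at 7 combined peaks (1.43%). The highest-scoring left-out peak, at NW_022145609.1:29536043-29536326 (Spur_5.0) inside the span of LOC580672, had a score of 2.41 from an antibody signal of 5.08 and an input of 2.66. The next, at NW_022145603.1:639079-639362 and 8021 bp from LOC105442278, had a score of 2.12 from an antibody signal of 22.78 and an input of 20.66, a fold of 1.10. A peak 29 bp from LOC105440309 stood at an antibody signal of 10 and an input of 8.06 (score 1.93). In these 3 peaks the difference between the signals was large and the ratio small. The first members of the list with a fold of at least 3 came at a score of 1.5, among them peaks inside Sec16a (LOC100888527, a scaffold protein of endoplasmic reticulum exit sites in vertebrates) with a fold of 3.63 and inside Egf/HyalinL5 (LOC578978) with a fold of 3.48. In the authors' deposited table these genes have log2 fold changes of 0.50 and -1.50.

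The highest folds were found at low input. Fold is a ratio to input, and left-out peaks with a fold of at least 3 score at most 1.5. The low input thus follows largely from the measures themselves. The largest fold among the left-out peaks was 9.71, at an antibody signal of 1.23 and an input of 0.13, and the peak lay 15267 bp from C4mso (LOC590604), beyond the 10 kb within which peaks were given to genes here. A peak 4999 bp from Susd2_2 (LOC580458, a sushi-domain protein) had a fold of 9.61 with an antibody signal of 1.62. A peak inside PMCA, which is the symbol of a plasma membrane calcium pump, had a fold of 9.55, an antibody signal of 1.90 and a score of 1.41. In all, 109 left-out peaks had a fold of at least 5, as did 289 combined peaks. In the 3 peaks named here the fold rests on an input of 0.13 to 0.20, and its counting error cannot be given because the depth is unknown.

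The authors' false discovery rate did not order the peaks by strength over the whole range of scores. At low scores it fell as the score rose, with 41.0, 24.81 and 7.57% at left-out peaks scoring 0.50, 0.70 and 0.97. At high scores it was higher again. It had a median of 25.2% in the left-out peaks (range 5.94 to 41.2%) and of 13.6% in the combined peaks (range 0 to 83.3%). It was under 10% at 1450 left-out peaks (21.1%), with scores from 0.90 to 1.93, and at 154 combined peaks (31.6%). The top left-out peak, with a score of 2.41, has 12.79%, and the strongest combined peak at brachyury, with a score of 9.91, has 47.14%.

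The peaks just inside and just outside the limit of overlap had scores in the same range. The left-out peak nearest to a combined interval abuts it with a gap of 0 bp, at NW_022145599.1:2999187-2999470, with a score of 0.56 and a fold of 1.89. The next 3 lay 9, 11 and 14 bp from a library 1 peak (scores 0.70, 0.69 and 0.97), and the one after them lay 18 bp from a combined interval (score 0.77). Just outside the rule, 5 library 2 peaks overlapped by 1, 4, 7, 7 and 12 bp, with scores of 0.72, 0.52, 0.69, 1.12 and 0.60. Few members are near this edge. Only 28 had a gap under 100 bp and 151 a gap under 500 bp to the combined set or library 1. The median distance to the nearest combined peak on the same scaffold was 437260.5 bp, and 340 left-out peaks (4.94%) lay within 10 kb of one.

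The left-out peaks were spread over 43 scaffolds, with 6845 on the 21 long scaffolds for which gene spans could be used and 33 elsewhere. Their density ran from 2.00 to 19.1 per Mb (median 6.74) over the 21 scaffolds, while protein-coding genes ran from 23.9 to 34.5 per Mb. Combined peaks were uneven too, from 0.095 to 1.05 per Mb (median 0.567), and both kinds were sparsest on NW_022145606.1. Between 6.54 and 28.4 left-out peaks were listed for each combined peak. Strength differed little between scaffolds, with a median score per scaffold between 0.67 and 0.74 and a median fold between 2.15 and 2.41.

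Left-out peaks fell inside genes more often than combined peaks. The midpoint lay inside the span of a protein-coding gene for 4759 of 6845 left-out peaks, or 69.5% (exact 95% binomial interval 68.4 to 70.6%), and for 248 of 489 combined peaks, or 50.7% (46.2 to 55.2%). Of the 78 peaks that overlap library 1 and no combined interval, 57 lay inside a span (73.1%, 61.8 to 82.5%). A high share inside genes is thus not particular to the left-out peaks. Gene spans cover 47.1% of the 828 Mb considered. Left-out peaks thus stood at 12.2 per Mb inside spans and 4.76 per Mb outside, a ratio of 2.56, and combined peaks at 0.636 and 0.550 per Mb, a ratio of 1.15. The intervals cover counting error over peaks of 1 library and not the spread between embryos or libraries. A gene span runs from the first to the last base of a gene, and exons, introns and strand were not used here, so a place inside a span is not assigned to any of them.

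The share inside genes was much the same at every score among left-out peaks. It ran from 68.6 to 70.6% over 6 steps of score from 0.50 upward, and was 68.8% (62.2 to 74.8%) in the 221 peaks with a score of at least 1.25. Over steps of score that partly overlap these, the share in combined peaks was 58.6% (51.5 to 65.5%) of the 203 with a score under 2, 40.9% of the 110 between 2 and 3, 47.5% of the 80 between 3 and 5 and 47.9% of the 94 from 5 upward. By fold, the share in left-out peaks was 70.5% under a fold of 2, 70.8 and 70.1% in the next 2 steps, 66.1% (63.4 to 68.7%) at folds of 3 to 5 and 59.8% (49.9 to 69.2%) in the 107 with a fold of at least 5. Input moved with this only a little, with a median of 0.58 at peaks inside spans and 0.55 outside. The median score was 0.70 in both places, and the median fold was 2.30 inside and 2.35 outside.

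**Figure D2:**
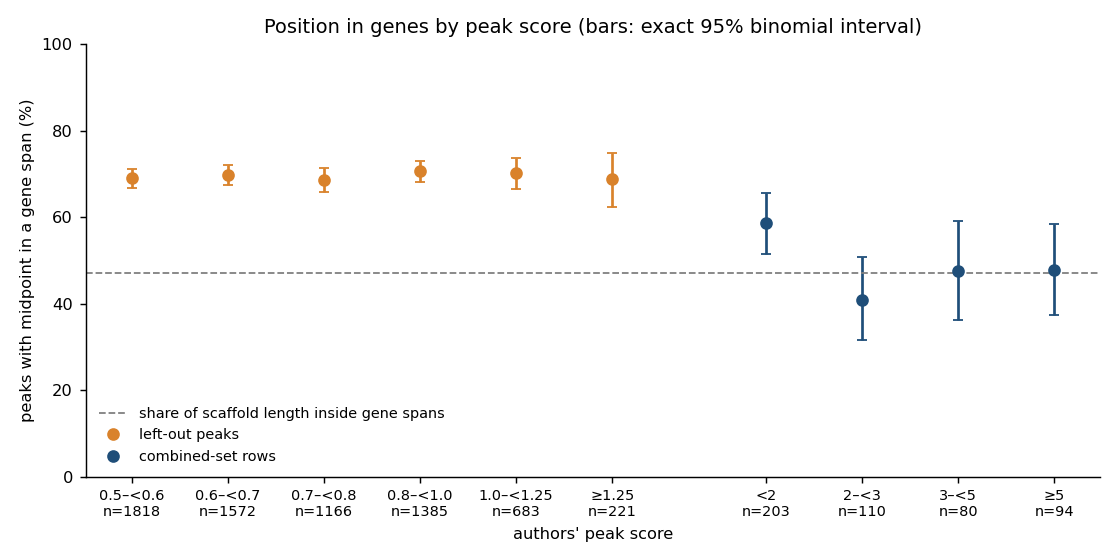
The share of peaks whose midpoint lies in a protein-coding gene span (vertical axis, percent) is plotted by step of the authors' peak score for left-out peaks (orange) and combined peaks (blue), with exact 95% binomial intervals as bars and the number of peaks under each step. The orange points lie between 68.6 and 70.6%, and the dashed line marks the 47.1% of scaffold length inside gene spans.

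Positions relative to gene ends were close in the left-out and the combined peaks. A midpoint within 1 kb of either end of a span was found for 12.5% of left-out and 13.3% of combined peaks. Of the peaks inside a span, 21.6% of left-out and 25.8% of combined peaks lay in the 10% of its length at either end, where an even spread would give 20%. Beyond 10 kb of any span lay 1168 left-out peaks (17.1%) and 126 combined peaks (25.8%).

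Given to the nearest span within 10 kb, 5677 left-out peaks named 3609 genes, 14.6% of the 24773 protein-coding genes on these scaffolds. The combined peaks named 294 genes (1.19%). Of these genes 170 were in both sets, which is 57.8% of the genes with a combined peak and 4.71% of the genes with a left-out peak. A left-out peak and no combined peak was found at 3439 genes, and a combined peak alone at 124. Most genes had a single left-out peak (2433), 1176 had at least 2, and 101 had at least 5. The genes named were long. Their median span was 19378 bp, that of all genes 10226 bp and that of genes with a combined peak 20792 bp. When all genes were ordered by span and cut into 5 classes of equal size, the share with a left-out peak was 6.44, 8.56, 11.4, 15.7 and 30.7%, from the shortest class to the longest.

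The brachyury gene itself (LOC576774, T-box factor) shows both kinds of peak. Its 8 combined peaks had scores from 1.56 to 9.91 and folds from 5.39 to 28.77. Its 1 left-out peak, at NW_022145607.1:32949309-32949592, lay 145 bp beyond the high-coordinate end of the span, with an antibody signal of 1.61, an input of 0.28, a score of 1.25 and a fold of 5.80. It sits below all 8 in score and between them in fold. In the authors' deposited table brachyury has a log2 fold change of 1.18. The morpholino acts on translation, so the transcript does not check the knockdown. The other T-box gene matched, Tbx2/3, an aboral ectoderm regulator, had 4 combined peaks and 2 left-out peaks, the stronger with a score of 1.15 and a fold of 5.41.

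Signalling genes had left-out peaks in several families. The counts are read beside 14.6% of all genes with a left-out peak and 1.19% with a combined peak. Listed genes could be matched only by name, so all genes are an unlike background here and in the lists below. A left-out peak was found at 37.1% of the 248 genes with a RefSeq symbol other than a LOC number. Among genes of the authors' deposited table it was found at 22.5%. Wnt signalling drives vegetal fate in this embryo. Among its ligand genes, wnt1 had 4 left-out peaks (top score 1.24) and 1 combined peak, and Wnt6 (LOC585147) had 3 left-out peaks inside its span (top score 1.18, fold 4.11) and no combined peak. Wnt8 and Wnt4 had no left-out peak. None of the 4 matched Wnt receptors, antagonists and effectors (Sfrp1/5, Wif, Dsh and Tcf/Lef) had one, although Wif, a secreted Wnt inhibitor, had a combined peak. So few genes do not set this family apart from the ligands or from all genes. FGFR, the FGF receptor, had 15 combined peaks with scores from 2.06 to 17.62 and 2 left-out peaks at 0.63 and 0.78. Its ligand gene FGF had 3 combined peaks and 1 left-out peak with a score of 1.33, and Vegf3, which in the sea urchin guides skeletogenic cells, had 1 left-out peak at 0.71 and no combined peak. The hedgehog ligand gene hh had 3 left-out peaks (top score 0.94) and 1 combined peak. Delta, the Notch ligand of the mesoderm, had a combined peak and no left-out peak, whereas Hes, a target of Notch signalling, had 2 left-out peaks (top score 0.69) and no combined peak. Of 6 Nodal, BMP and TGF-beta genes, BMP2/4 and Smad1/5/8 (LOC582943), a BMP ligand and an intracellular carrier of its signal, had 1 and 2.

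Genes listed as endoderm regulators were often next to left-out peaks. The list is broad. Its gene SoxB2 is also counted among the apical and neural regulators, and Tgif among the skeletogenic regulators. Dac and Nk1 were each matched to more than 1 locus, and each locus is counted. Of 17 matched loci of endoderm regulators 12 had at least 1 left-out peak, and 5 had a combined peak. The share with a left-out peak was 14.6% of all genes and 37.1% of genes with a RefSeq symbol other than a LOC number. Of the 17, 14 are in the authors' deposited table, where it was 22.5%. SoxB1, which the authors' deposited table places under the term Nervous, has a span of only 1.1 kb. It had 5 left-out peaks, 1 of them on the gene, with scores from 0.56 to 0.95 and folds from 1.89 to 3.20. The homeobox gene eve had 4, lox, otx and Hox11/13b (Hbox7) had 3 each, and FoxA, a forkhead gene of the gut, had 2. The highest scores in this list were 1.24 at SoxF (LOC587141) and 1.23 at lox. In the authors' deposited table Hox11/13b and SoxF are positive (1.15 and 0.95) and SoxB1 and FoxA negative (-0.82 and -0.67). Of the 9 endoderm loci with a left-out peak that are in it, 5 are positive and 4 negative. Both Dac loci are among the positive ones.

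Among 14 non-skeletogenic mesoderm and pigment genes, 8 had a left-out peak and 4 a combined peak, beside 14.6 and 1.19% of all genes. Among genes with a RefSeq symbol other than a LOC number, 37.1% had a left-out peak. The gene GATAc, a zinc finger factor of the blastocoelar cell lineage, had 8 left-out peaks and no combined peak, all inside its 55.9 kb span and all weak. Their scores ran from 0.52 to 0.78, their folds from 1.80 to 3.27, their antibody signals from 1.01 to 1.39 and their inputs from 0.33 to 0.77. Z166 (LOC589099) had 6 with a top score of 1.08; the authors' deposited table names it Rxr and describes it as a zinc finger protein. Pks1, the polyketide synthase of pigment cells, had 4 with a top score of 1.34 and a combined peak, and gcm, the regulator of pigment cell fate, had 2 of each kind. The log2 fold changes in the authors' deposited table are 1.17 for GATAc, -1.34 for Z166, -1.60 for Pks1 and 0.76 for gcm.

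In the skeletogenic lineage, 7 of 9 regulators had a left-out peak and 3 a combined peak, beside 14.6 and 1.19% of all genes. Among genes with a RefSeq symbol other than a LOC number, 37.1% had a left-out peak. The locus named Nk7 in the authors' deposited table (LOC580883), which that table describes as a GBX-2 homeobox protein, had 5 with scores from 0.55 to 1.06 and a log2 fold change of -3.33. Alx1 and ets1, which specify these cells, had 1 left-out peak each, at 0.53 and 0.51. The repressor gene snail had 2, with a top score of 0.99 and a fold of 4.75. Of 18 biomineralization genes, whose products build the spicule, 2 had a left-out peak (11.1%) and 0 a combined peak. Both are near the shares of all genes. These 2 were SM50 and LOC105437370, which overlap on the scaffold, so their peaks cannot be assigned with certainty. The biomineralization genes are short, with a median span of 8990.5 bp, and the regulators longer, with 23396 bp, and the shares of the lists were not compared by a test.

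Ectoderm and neural regulators are read beside 14.6% of all genes with a left-out peak and 1.19% with a combined peak. Among genes with a RefSeq symbol other than a LOC number, 37.1% had a left-out peak. Of 9 oral and border ectoderm regulators 6 had a left-out peak and 1 a combined peak, the 6 including Gsc and FoxG with 1 each, and Hes with 2. Of 16 aboral ectoderm genes 7 had a left-out peak and 3 a combined peak, led by the homeobox genes Dlx and NK2.2 with 4 each and IrxA with 3. Of 7 apical and neural regulators 5 had a left-out peak and 2 a combined peak. Isl (LOC576365), the islet-type homeobox gene of neurons, had 7, with scores from 0.65 to 1.49 and folds from 1.81 to 4.2, and 1 combined peak with a score of 1.62. In the authors' deposited table Isl has a log2 fold change of -3.15, and all 5 neural regulators with a left-out peak are negative there, as are all 6 of the aboral genes with a left-out peak that it holds. Every matched gene of both lists that the table holds is negative, so this sign is that of the lists.

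Ribosomal protein and steady genes stood near the background of 14.6% of all genes with a left-out peak and 1.19% with a combined peak. Of 14 ribosomal protein and steady genes 2 had a left-out peak (14.3%), Rpl3 (LOC586477, score 0.90) and Ef1a (LOC548620, 0.75), and 0 had a combined peak. The extracellular matrix, adhesion and cytoskeleton genes stood above it. Of these 11 genes 4 had left-out peaks (36.4%), among them the protocadherin FatL1 (LOC580257) with 6, and 4 had a combined peak. They are long, with a median span of 31337 bp. Over all lists, with each gene counted once, 59 of 130 genes had a left-out peak, or 45.4% (36.6 to 54.3%), and 28 had a combined peak. The genes of the lists have a median span of 15177.5 bp, which is above that of all genes, and a gene could be matched only where RefSeq or the authors' deposited table gives it a name. Among the 248 genes with a RefSeq symbol other than a LOC number, 92 (37.1%) had a left-out peak.

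**Figure D3:**
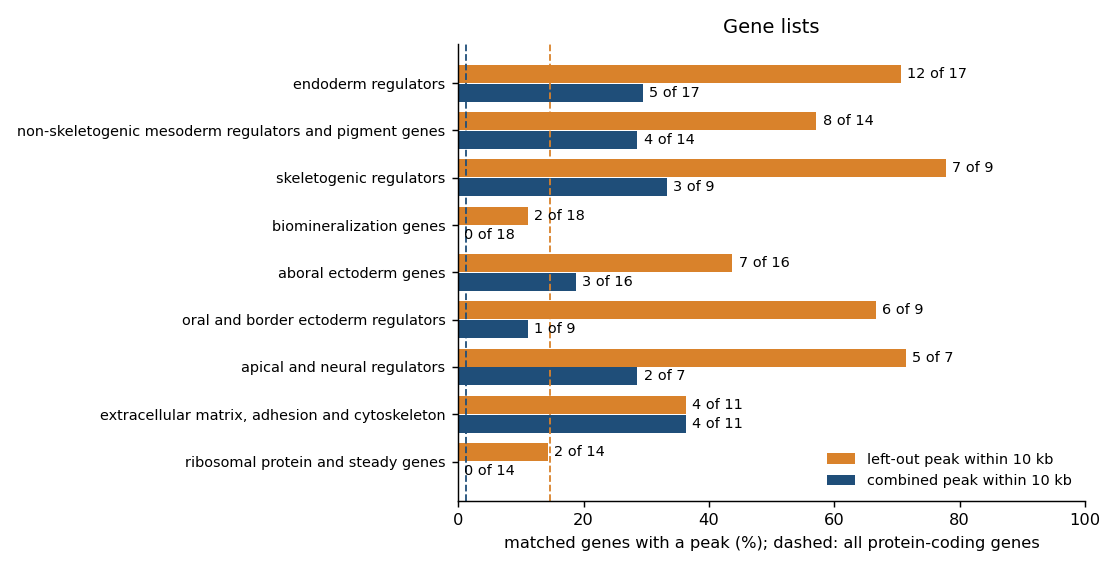
Bars show the share of the matched genes of 9 lists (horizontal axis, percent) with a left-out peak (orange) or a combined peak (blue) within 10 kb of the midpoint, with counts at the bars. The dashed lines mark the same shares over all protein-coding genes, 14.6 and 1.19%. Biomineralization genes (2 of 18) and ribosomal protein and steady genes (2 of 14) lie near the orange line. The lists hold named genes, and among genes with a RefSeq symbol other than a LOC number 37.1% had a left-out peak.

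**Figure D4:**
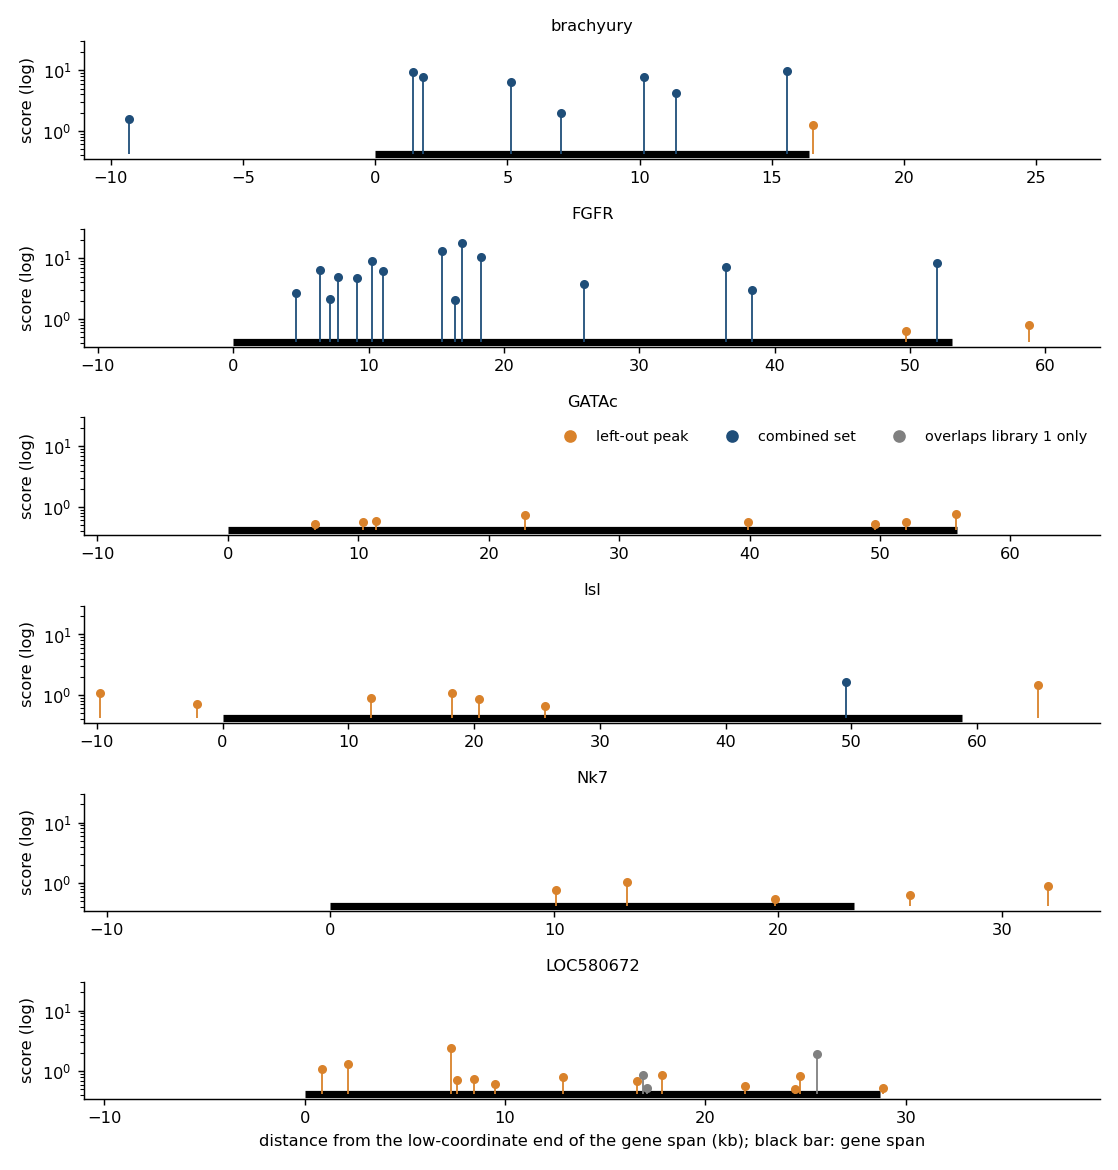
Library 2 peaks given to 6 genes, as the nearest within 10 kb, are drawn by distance from the low-coordinate end of the gene span (horizontal axis, kb) and by the authors' score (vertical axis, log scale), orange for left-out peaks, blue for combined peaks and grey for peaks that overlap library 1 only. The 8 combined peaks of brachyury and 15 of FGFR stand above their left-out peaks, while GATAc and Nk7 have left-out peaks alone and LOC580672 has 13 left-out and 3 grey peaks.

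The gene with the most left-out peaks stood out by its input. LOC580672 had 13 over a span of 28714 bp, and every one had a high input, from 1.13 to 2.66, with a median fold of 1.42. At 3 further library 2 peaks of this gene, which overlap library 1, the input was 2.08 to 2.68. High input was also found at LOC105440110, with 7 left-out peaks and a median input of 1.26. The other genes of the 15 with most left-out peaks had median inputs from 0.505 to 0.835, beside 0.57 over the whole list. LOC590007 had 12 over 220906 bp with a median input of 0.695, and LOC579027 and LOC105437706 had 10 each. Birc6 (LOC577866), a large inhibitor-of-apoptosis family protein in vertebrates, had 9 inside 55250 bp with a median fold of 2.44 and no combined peak. Akap13 (LOC574669), which the authors' deposited table describes as a rho guanine nucleotide exchange factor, had 9 and a combined peak, and HemiL (LOC574679, a hemicentin) had 8 and a combined peak. The authors' deposited table gives log2 fold changes of 0.62 for Birc6, 0.94 for Akap13 and -0.79 for HemiL.

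Left-out peaks lay farther from the next library 2 peak than combined peaks did. As 92.2% of the library 2 list is left-out peaks, that next peak is mostly a left-out one. Distances among combined peaks alone were not taken. The median distance from a left-out peak to the nearest library 2 peak of any kind was 11868 bp, with 8.26% within 500 bp and 46.0% within 10 kb. For the 488 combined peaks it was 6605.5 bp, with 14.1% within 500 bp and 60.7% within 10 kb. Counts and distances along a gene are those of called peaks in 1 library.

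The genes next to left-out peaks were then read against the RNA-seq comparison. The authors' deposited table holds the genes that passed an adjusted p under 0.05 between morphants and controls, and it does not say which group is the numerator, so signs are given as positive and negative. In whole embryos fewer cells of a type and less RNA per cell cannot be told apart. Of the 24773 genes considered 2978 (12.0%) are in the authors' deposited table, 1482 positive (5.98%) and 1496 negative (6.04%). Of the 3609 genes with a left-out peak, 671 are in the authors' deposited table, or 18.6% (17.3 to 19.9%), 433 positive and 238 negative. The positive share among these is 64.5% (60.8 to 68.2%), against 49.8% over all its genes considered and 45.5% (43.4 to 47.5%) among those with no left-out peak.

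Among genes with combined peaks the signs were even. Of the 294, 73 (24.8%) are in the authors' deposited table, 36 positive and 37 negative (49.3% positive, 37.4 to 61.3%). Of the 170 genes with both kinds of peak 49 are in the authors' deposited table, 29 positive and 20 negative. Of the 124 with a combined peak alone 24 are in it, 7 positive and 17 negative. Of the 3439 with a left-out peak and no combined peak 622 are in the authors' deposited table, 404 positive and 218 negative (65.0% positive, 61.1 to 68.7%). These are counts of genes called by the authors, and the differences between them were not tested.

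The share of genes in the differential comparison was higher with more left-out peaks. The share of genes in the authors' deposited table was 10.9% with no left-out peak, 17.3% with 1, 19.05% with 2, 20.5% with 3 and 29.1% with at least 4. Among those in the authors' deposited table the positive share was 45.5, 61.6, 68.4, 76.5 and 66.1% in the same order, the last 2 with 51 and 62 genes, and the intervals from 1 peak upward overlap (56.8 to 66.3% with 1, 62.5 to 87.2% with 3). Median span rose along these steps from 9225 to 46976 bp. Within each of the 5 classes of span length, positive genes of the authors' deposited table had a left-out peak more often than negative ones. The shares were 13.3 and 9.32% in the shortest class, 11.6 and 8.07%, 24.2 and 10.3%, 25.4 and 16.7%, and 43.8 and 28.0% in the longest. The shortest class rests on 11 of 83 and 15 of 161 genes, the second on 21 of 181 and 23 of 285. In these classes the intervals of the positive share overlapped between table genes with and without a left-out peak. They were 23.4 to 63.1% and 26.8 to 39.7%, then 32.5 to 63.3% and 33.3 to 42.7%. In the longer classes they did not overlap. Over all genes the shares of 6.44 to 30.7% given above were close to those of the negative genes from the second class upward.

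**Figure D5:**
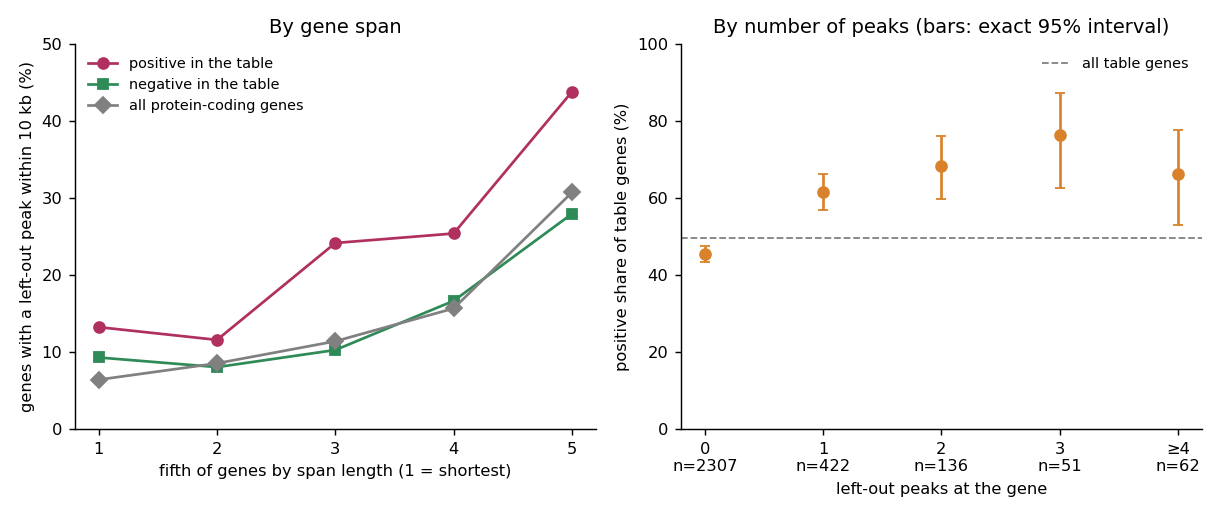
The left panel plots the share of genes with a left-out peak within 10 kb (percent) by class of gene span for positive and negative genes of the authors' deposited table and for all protein-coding genes; the positive line lies above the negative line in all 5 classes. The right panel plots the positive share of table genes (percent, exact 95% binomial interval) by number of left-out peaks at the gene, from 45.5% with none to 76.5% with 3, with a dashed line at 49.8% for all table genes considered.

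Genes with small fold changes had left-out peaks more often than genes with large ones. Among positive genes of the authors' deposited table the share with a left-out peak was 41.8% at a log2 fold change under 0.5, 31.5% from 0.5 to 1, 26.4% from 1 to 2 and 20.3% from 2 upward. For the negative genes in the authors' deposited table it was 22.0, 19.1, 15.2 and 9.80% over the same steps of size. Span fell along with it, from a median of 23672 to 7788 bp among positive and from 17766 to 9241 bp among negative genes. The part of span in this order was not tested. Of the 18 genes of the authors' deposited table next to a left-out peak with a fold of at least 5, 44.4% were positive (21.5 to 69.2%), an interval that holds both 49.8 and 64.5%.

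The genes with a left-out peak, no combined peak and a usable name were also ordered by their value in the authors' deposited table, which holds larger values at other genes. Among these genes the largest positive values of the authors' deposited table were 6.63 for PppL_139 (LOC100891966), 4.92 for Mmr2L (LOC100890453), 4.90 for Rem (LOC580155, a small GTP-binding protein) and 4.07 for Furin_1 (LOC574811, a proprotein protease), with top scores of 0.53, 0.90, 0.61 and 0.76. Gria1 (LOC100888529), a glutamate receptor with a value of 2.56 in the authors' deposited table, had 3 left-out peaks with a top score of 1.25, and Gpr64L_2 (LOC100889046), a G-protein coupled receptor at 2.95, had 1 with a score of 1.30 and a fold of 5.76. On the negative side the same order of the authors' deposited table gave Nk7 at -3.33, the receptor tyrosine kinase TIE1/2 at -3.11 (1 left-out peak, score 0.88), MtoL1 (LOC580975) at -2.96, Npffr2L_4 (LOC579394) at -2.65 and the odd-skipped-related zinc finger gene Osr (LOC575703) at -2.51. Susd2_2 (-2.44 in the authors' deposited table) is the gene next to the peak with a fold of 9.61 described above. Most of these genes rest on 1 or 2 peaks of scores below 1.

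The functional terms of the authors' deposited table divided the genes further. Among the 23 terms with at least 20 genes, beside 22.5% of all table genes considered, a left-out peak was most frequent in the term Nervous, with 28 of 51 genes (54.9%, interval 40.3 to 68.9%), of which 22 are negative, as are 36 of the 51 in the whole term. CalciumToolkit had 20 of 38 (52.6%), ZincFinger 25 of 48 (52.1%), TranscriptionFactor 19 of 37 (51.4%), Signaling 12 of 28 (42.9%) and Adhesion 29 of 76 (38.2%). Positive in the authors' deposited table are 21 of the 25 ZincFinger genes and 25 of the 29 Adhesion genes with a left-out peak, where 38 of the 48 and 42 of the 76 in the whole terms are. At the other end were Translation with 11 of 94 (11.7%), Transferase with 8 of 76 (10.5%), Hydrolase with 6 of 58 (10.3%) and Metalloprotease with 1 of 28 (3.57%). Spans differ between the terms, with a median of 12884 bp for ZincFinger, 42636 bp for Adhesion and 6745.5 bp for Translation.

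Examples from these terms, chosen after their values were seen, had up to 7 left-out peaks each. Agrin_1 (LOC586604), a basement membrane proteoglycan, had 7 left-out peaks with a top score of 1.02, and SemaA (LOC580797, a semaphorin) and Mll3 (LOC591084, a histone methyltransferase) had 6 each with top scores of 0.86 and 1.19. Cbp (LOC577224), a CREB-binding coactivator, and CcLta1 (LOC574743), a voltage-gated calcium channel subunit, had 5 each. FGFRL1, an FGF receptor-like gene, had 6 over a span of 15024 bp with a top score of 1.17, and a combined peak. In the authors' deposited table the log2 fold changes are 0.70 for Agrin_1, -0.92 for SemaA, 1.10 for Mll3, 1.16 for Cbp, -0.86 for CcLta1 and -0.99 for FGFRL1.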

How the data were processed

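ChIP-seq and RNA-seq of whole 24 h embryos were deposited as peak lists per antibody library, a combined peak set and a differential expression table. BWA 0.7.17, Salmon 0.11.3, Trimmomatic 0.38 and DESeq2 1.28.1 are named, without a role, in the submitters' processing notes. The peak caller, the scaling of signal and the rule of the combined set are not given in the sources used here. For every peak the authors deposited an antibody and an input signal, their ratio as fold enrichment, and a score. Per the file headers there is also a distribution score, a fraction, and a false discovery rate that the authors gave in percent. The log2 fold changes, p-values and adjusted p-values are those of the authors' deposited table, per the file headers.

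Peaks were joined by overlaps of at least 1 bp, and positions are counted from 1. The Spur_5.0 gene table (RefSeq) leaves the scaffold of nuclear genes unknown. Its 33503 rows form blocks within which the start rises. The 21 blocks over 20 Mb were matched, in order, to the 21 scaffolds with more than 100 library 2 peaks. No peak lies beyond the last gene of its block in any of the 21 matches, and block number and scaffold number differ by 1 constant. The matching is an inference. A midpoint was given to the nearest protein-coding span within 10 kb, and to the shortest where several hold it. Of the 3542 table genes 2978 lie on these scaffolds.

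The members and the gene lists were chosen with earlier results of these data known. Genes named are those at the 15 highest-scoring left-out peaks, the 15 with most left-out peaks, up to 6 per list by number of peaks, and the 10 largest log2 fold changes per sign with a left-out peak, no combined peak and a usable name, with examples drawn from these. The peaks of highest fold, the examples of functional terms and list genes named for having no left-out peak were chosen after their values were seen. List names were matched to symbols, synonyms and table names, and unmatched names were left out. With 1 antibody library there is no test, and intervals are exact 95% binomial intervals that cover counting error only. The joins were tested on simulated intervals. Alternatives changed the overlap, the gene distance and the limits on score, fold, false discovery rate, adjusted p and fold change. Peak sequences and motifs need a genome and are not analysed here. The tools were scipy 1.17.1, pandas 2.3.3, matplotlib 3.10.9 and numpy 2.4.6 under Python 3.11.15.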

Additional observations from a re-analysis of the deposited data

How the results depend on the processing

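The number of left-out peaks was 6971 when 0.5 of a peak's width had to overlap, 6940 with midpoints within 50 bp and 6727 without those within 500 bp of a combined or library 1 peak. Stricter subsets hold fewer or stronger peaks, which by construction moves the gene counts, the median fold and the distance between peaks. A stricter limit on adjusted p or fold change counts fewer genes of the authors' deposited table. By construction this lowers both the share of genes in it and the share over all genes. Other shares moved as well, and the cause of that was not tested. The median fold of 2.32 was 3.01 at a false discovery rate under 10%. The share inside genes of 69.5% was 59.8% at a fold of at least 5, where the cause was not tested. The 3609 genes were 687 at a score of at least 1 and 85 at a fold of at least 5. The median distance to the next peak of 11868 bp was 134236 bp among peaks with a score of at least 1. The share of genes in the authors' deposited table, 18.6% beside 12.0%, was 23.0% at a score of at least 1, 21.2% at a fold of at least 5 and 22.4% at a false discovery rate under 10%. It was 11.9% beside 7.46% with an adjusted p under 0.01, and 7.37% beside 6.05% for log2 fold changes of 1 or more in size. The positive share of 64.5% beside 49.8% was 52.6% beside 38.8% for log2 fold changes of that size and 44.4% of 18 genes at a fold of at least 5. The other alternatives, among them 5 and 50 kb gene distances, and midpoints inside spans and peaks with an input under 1, both added after seeing the data, moved no value beyond its interval and no count by over 1.5 times. No paired analysis was possible because the left-out peaks come from 1 antibody library and no result comes from a test. For the same reason no replicate could be left out. The unknown depth limits every low fold.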

Other observations

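Left-out peaks also gathered in a few windows of 100 kb. The fullest, at NW_022145609.1:29500001-29600000, held 15 with a median input of 1.93 and a median fold of 1.46, of which 13 were given to LOC580672. A window on another scaffold, NW_022145603.1:29900001-30000000, held 14 with a median input of 1.14 and a median fold of 1.56, of which 13 lay nearest to LOC105436495. The next fullest windows had an input near the median of the list. The window NW_022145611.1:24800001-24900000, which takes in most of Birc6, held 13 at a median input of 0.59 and a median fold of 2.33. The window NW_022145600.1:15700001-15800000 held 12 at a median input of 0.535 and a median fold of 2.34, 8 of them nearest to FGFRL1, and it ends just inside the span of FGFR with its 15 combined peaks. These windows were chosen for their counts and were not tested.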
